A study of Homo sapiens with 6 samples.

Results

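MAGED2 and 5 other genes of the type II MAGE family (MAGED1, MAGEH1, MAGEF1, NDN and TRO) were examined by RNA-seq in A549, an established line of human lung adenocarcinoma cells. The members were the gene symbols of that name among the 26485 symbols counted, and all 6 were found. They were chosen by measured values, since MAGED2 was picked for its log2 fold change between the groups compared here and the others as its relatives. The values of these members in that comparison are therefore given as a description, without a test. All cells carried lentiviral dCas9-KRAB, a nuclease-dead Cas9 fused to the KRAB repressor domain and selected with puromycin, and lentiviral rat Nkx2-1 expressed from a PGK promoter with EGFP and sorted for that fluorescence. On top of this shared background, 3 libraries came from cells transiently transfected with a synthetic guide RNA to the first intron of the surfactant protein gene SFTPB (sgRNA #2), and 3 from cells given a non-targeted guide (sgRNA control). The study used this comparison to ask how specific CRISPR interference at the SFTPB intron was.

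MAGE proteins share a MAGE homology domain, through which many of them bind a RING-type ubiquitin ligase and alter its activity or its choice of substrate. Type I MAGE genes, the MAGEA, MAGEB and MAGEC groups on the X chromosome, are mostly silent outside the germ line and reappear in tumours, whereas type II genes are expressed in many normal tissues. MAGED2 is best known from the kidney, where its loss causes transient antenatal Bartter syndrome through reduced surface expression of the salt cotransporters SLC12A1 and SLC12A3.

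The sgRNA #2 target is shown with the closest site near a start of MAGED2, because MAGED2 was the member with the lowest log2 fold change. Both are written 5′ to 3′ with the PAM as the last 3 letters, and capitals mark the bases of the 20-base target that the pair share. The target lies at chr2:85668529-85668551 on the minus strand of GRCh38 and had 1 exact site in the genome. The MAGED2 site lies at chrX:54809492-54809514, also on the minus strand.
sgRNA #2 target: gggatGGgAGGGGaACACCCagg
MAGED2 site: cactgGGcAGGGGgACACCCagg
Counted from 1 at the 5′ end of the guide, the site differed by G1C, G2A, G3C, A4T, T5G, G8C and A14G, which is 7 mismatches of 20 bases. The 6 bases next to the PAM were identical, and A14G was the single mismatch among the 12 PAM-proximal bases. The site lay 393 bp from the nearest annotated start. In GENCODE 44 it fell in an intron of 11 of the 13 MAGED2 transcripts and upstream of the start of the other 2. In the canonical transcript it was in intron 2, at chrX:54809377-54809721, 1758 bp downstream of the start.

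Partial matches of this kind are common, so each member was read against the 13082 tested genes with an annotated start. Every annotated start of a gene was searched, so genes with more starts had more sequence in which to hold a match. MAGED2 has 13 annotated transcripts, TRO 25 and MAGED1 10, against 1 each for MAGEH1, MAGEF1 and NDN. The shares below do not adjust for that. Within 1000 bp of a start, a run of at least 6 PAM-proximal bases followed by NGG, as at MAGED2, was present in 24.2% of genes. The longest run was 5 bases at MAGED1 and TRO, a length reached by 76.6% of genes, and 4 bases at MAGEF1 and MAGEH1, reached by 95.9%. NDN, at 0 counts in every library, held the longest run of the members, 8 bases, as did 1.51% of genes. Counted instead as mismatches within the 12 PAM-proximal bases, a measure chosen after the values were seen, MAGED2 had 1 mismatch at its best site, and 52 genes (0.397%) had a site at least as close. NDN and TRO had 3 mismatches by that count (42.9% of genes), MAGED1 and MAGEF1 had 4 (90.8%) and MAGEH1 had 5 (99.8%). Whether sgRNA #2 bound at any of these sites was not tested.

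**Figure D1:**
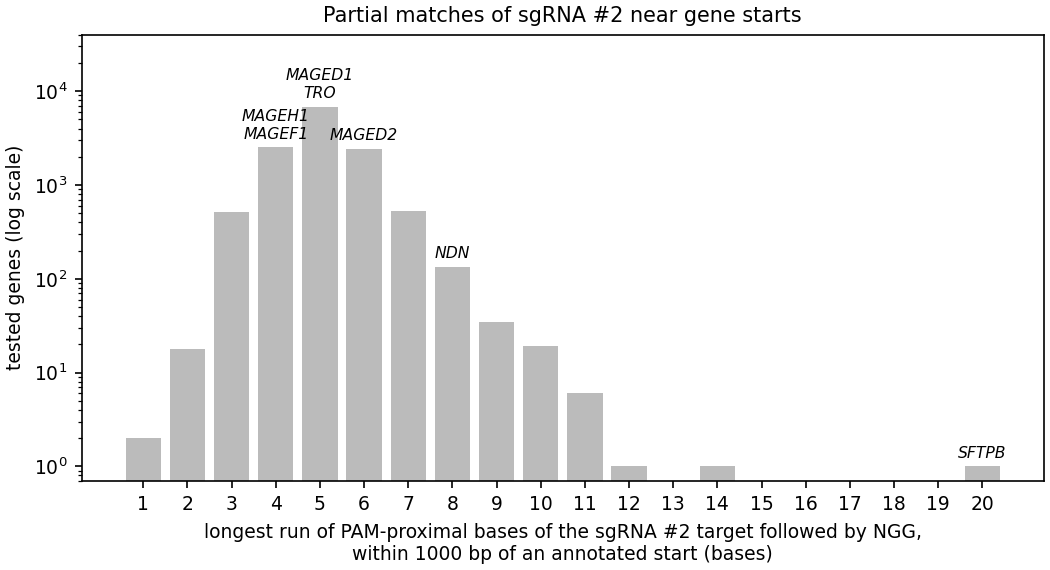
Number of tested genes (log axis) by the longest run of PAM-proximal bases of the sgRNA #2 target, followed by NGG, within 1000 bp of an annotated start; the members and SFTPB are named above their bar. MAGED2 sits at 6 bases beside 24.2% of genes with at least that length, NDN sits at 8, and SFTPB, with the exact target, at 20.

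The libraries held between 6047554 and 7584611 reads on genes. Of all reads in the count output, unassigned ones included, 19.7 to 21.1% matched no annotated feature. The counts of SFTPB, the targeted gene, were 2683, 2877 and 3155 with sgRNA control and 40, 42 and 49 with sgRNA #2, so the groups matched their labels. Of 7 epithelial markers of A549 none was at 0 in every library. Their summed level was 6583 to 7287 CPM (counts scaled to library size) with sgRNA control and 6178 to 7049 CPM with sgRNA #2. The levels were uneven. ALDH1A1 was highest, at a mean of 2734 and 2583 CPM in the same order, and EPCAM was at 8.39 and 7.99 CPM. KRT19, at 0.329 and 0.289 CPM, had at most 4 counts in a library. The 9 markers of leukocytes, endothelium and fibroblasts summed to 6.22 to 9.06 CPM and 6.15 to 8.84 CPM in the same order, with 5 of them at 0 in every library, among them PTPRC, CD3E, CDH5 and DCN. Most of that sum was COL1A1, at a mean of 7.18 and 7.54 CPM, a level close to that of EPCAM. In bulk RNA, fewer cells that express a gene and less RNA of it per cell cannot be told apart.

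MAGED2 was lower in every sgRNA #2 library. It lies on the X chromosome at chrX:54807599-54816015 on the plus strand (ENSG00000102316.17, GRCh38) and contains the small nucleolar RNA gene SNORA11 on the same strand, which itself had 2 counts in all. MAGED2 had 765, 864 and 967 counts with sgRNA control and 67, 60 and 42 counts with sgRNA #2. The highest sgRNA #2 library was far below the lowest control library, and the groups did not overlap. Scaled to library size, MAGED2 was at 124 ± 2.90 CPM (SD, n = 3) with sgRNA control and 8.50 ± 1.34 CPM (SD, n = 3) with sgRNA #2, which was 6.88% of the control level, or 14.5-fold lower. Between libraries of the same replicate number the remaining level was 7.82, 7.36 and 5.50%. The log2 fold change was -3.85 (SE 0.10, 95% interval -4.07 to -3.63), the 9th lowest of the 13356 genes tested, and SFTPB was at -5.96.

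MAGED1 (chrX:51803007-51902354, plus strand), a close relative of MAGED2 that binds the p75 neurotrophin receptor NGFR and is also called NRAGE, was the member with the most reads. It had 1351, 1619 and 1662 counts with sgRNA control and 1402, 1349 and 1206 with sgRNA #2. In CPM the 3 control libraries, at 215, 229 and 218, all lay above the 3 sgRNA #2 libraries, at 199, 202 and 201. The groups did not overlap, but the distance between them was small: 221 ± 7.44 CPM against 201 ± 1.59 CPM (SD, n = 3 each), which is 90.9% of the control level and a log2 fold change of -0.14 (SE 0.06, 95% interval -0.27 to -0.01).

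MAGEF1 (chr3:184710364-184712064, minus strand), a partner of the ligase NSMCE1 that directs it to the iron-sulfur assembly factor MMS19, had 563, 612 and 698 counts with sgRNA control and 609, 538 and 522 counts with sgRNA #2. Its levels of 89.2 ± 2.53 CPM and 84.6 ± 3.45 CPM (SD, n = 3 each) overlapped between the groups, with a log2 fold change of -0.08 (95% interval -0.22 to 0.07). MAGEH1 (chrX:55452127-55453566, plus strand), which encodes a short protein made up mostly of the homology domain, had 17, 20 and 18 counts with sgRNA control and 17, 19 and 9 counts with sgRNA #2. The groups overlapped, and sgRNA #2 replicate 3 alone was low. The log2 fold change of MAGEH1 was -0.20 (95% interval -0.84 to 0.44), and it ran from -0.40 without sgRNA #2 replicate 2 to 0.0015 without sgRNA #2 replicate 3. At this depth the interval of MAGEH1 covers values on both sides of 0, and no difference was detectable.

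NDN and TRO were at or near the floor of detection. NDN (chr15:23685400-23687305, minus strand), which encodes necdin, an imprinted growth suppressor of the Prader-Willi region made mainly by neurons, had 0 counts in all 6 libraries. A count of 0 allows up to 3 counts in a library, or 0.394 to 0.499 CPM, and this limit covers counting error only. TRO (chrX:54920462-54931431, plus strand), which encodes the adhesion protein trophinin, had 0, 1 and 0 counts with sgRNA control and 0, 0 and 3 with sgRNA #2. No fold change was computed for either gene.

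**Figure D2:**
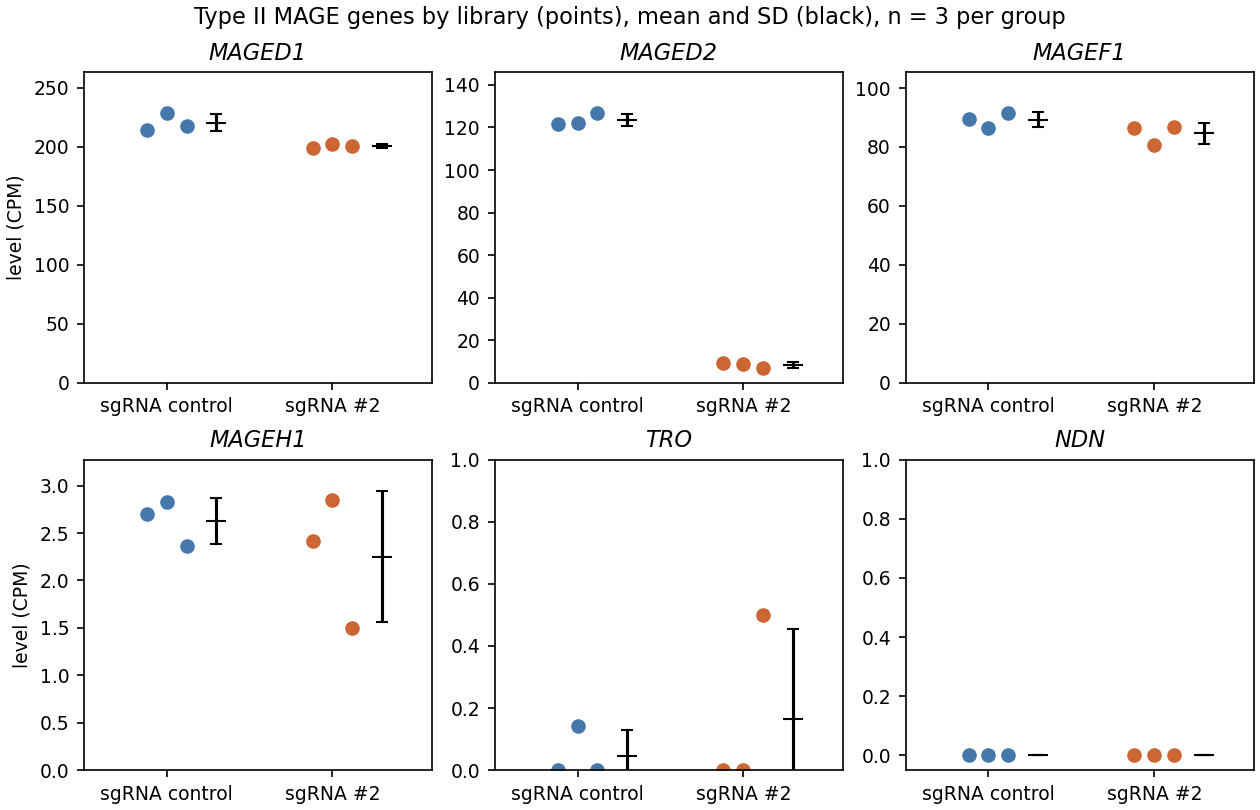
Level of each member in CPM in each library (points, left to right replicates 1 to 3), with the mean and SD of each group of 3 in black; the scales differ between panels. MAGED2 is at 124 CPM with sgRNA control and 8.50 CPM with sgRNA #2, MAGED1 separates by a small distance, MAGEF1 and MAGEH1 overlap, TRO has at most 3 counts and NDN is at 0.

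Of the 6 members, 4 passed the count filter, and 1 of them, MAGED2, passed both cut-offs of the study, an adjusted p-value under 0.05 and a log2 fold change of at least 1 in size. Over all tested genes 0.719% passed both cut-offs in either direction and 0.689% were lower, but since this contrast chose the members nothing is read from their count. MAGED1 and MAGED2 were the tested members whose groups did not overlap, as were 15.6% of all tested genes in either direction and 8.83% in the lower direction. The median log2 fold change was -0.17 over the 4 tested members and 0.00345 over all tested genes.

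Levels were compared between genes after division by exon length. In the sgRNA control libraries MAGEF1 was highest at 52.5 ± 1.49 CPM per kb, followed by MAGED2 at 42.0 ± 0.987 and MAGED1 at 36.7 ± 1.24 CPM per kb (SD, n = 3 each). MAGEH1 followed at 1.83 ± 0.168 CPM per kb, and the library ranges of these 4 genes did not overlap. TRO, at 0.0070 CPM per kb, and NDN, at 0, did not differ beyond their spread. With sgRNA #2 the order was MAGEF1 at 49.8 ± 2.03, MAGED1 at 33.4 ± 0.264, MAGED2 at 2.89 ± 0.454 and MAGEH1 at 1.56 ± 0.479 CPM per kb (SD, n = 3 each). Among tested genes, the per-length level of MAGED2 stood at a percentile of 92.6 with sgRNA control and 29.0 with sgRNA #2. The order rests on gene length: with the longest annotated transcript in place of all exons, MAGED2 stood above MAGEF1 in the control libraries. The order and the shares below may also depend on how reads across exon junctions were aligned, which was not tested. The canonical MAGED2 transcript has 13 exons, whereas the exons of MAGEF1 fill its whole span of 1701 bp.

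MAGED2 made up 31.6 ± 0.342% of the summed per-length level of the 6 members with sgRNA control and 3.30 ± 0.518% with sgRNA #2 (SD, n = 3 each). The summed level was 133 ± 1.73 CPM per kb in the control libraries and 87.6 ± 1.40 in the sgRNA #2 libraries. Without MAGED2 it was 91.0 ± 0.782 and 84.7 ± 1.46 CPM per kb, so the remaining members were not at a higher summed level where MAGED2 was low. The share of MAGEF1 was 39.4% with sgRNA control and 56.8% with sgRNA #2, and that of MAGED1 was 27.6% and 38.1%, while the levels of both genes were no higher. Over all 12 type II genes counted, the share of MAGED2 was 27.7% and 2.76%. The near-identical pair MAGED4 and MAGED4B, whose shared reads may go uncounted, added nothing to that sum.

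**Figure D3:**
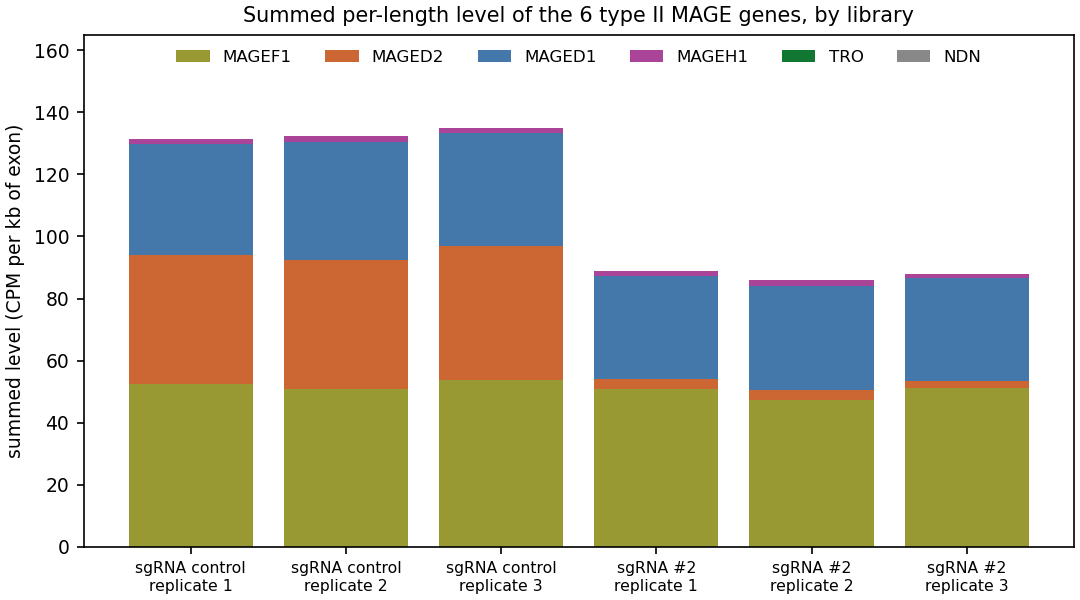
Summed level of the 6 members in CPM per kb of exon in each library, stacked by gene. The 3 control columns end between 132 and 135 and the 3 sgRNA #2 columns between 86.1 and 88.8; the MAGED2 band accounts for most of the difference, and TRO and NDN are too small to see.

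Genes outside the members were read against all tested genes, of which 2.69% passed the adjusted p alone (2.22% lower and 0.464% higher), 10.0% passed it with the replicate number as a block and 11.1% had an unadjusted p under 0.05. In 15.6% of all tested genes the groups did not overlap, in either direction. The other type II genes did not pass the test. NSMCE3, a MAGE protein that is a subunit of the SMC5/6 DNA repair complex and is listed under its older symbol NDNL2, had 412, 435 and 442 counts with sgRNA control and 435, 390 and 334 with sgRNA #2, with a log2 fold change of -0.07 (SE 0.08). MAGEE1, which binds dystrobrevin, had 118, 169 and 170 counts with sgRNA control and 123, 112 and 111 with sgRNA #2. Its groups did not overlap in CPM, at 21.7 ± 2.63 and 17.6 ± 0.838 (SD, n = 3 each), with a log2 fold change of -0.31 and an edgeR Benjamini-Hochberg adjusted p of 0.308. Of the 2 tested genes in this list, 0 passed in edgeR or DESeq2 and 1 had an unadjusted p under 0.05. MAGEL2, the imprinted neighbour of NDN, had 8 counts in all 6 libraries, MAGEE2 had 1, and MAGED4 and MAGED4B had 0. Type I genes had few counts in both groups. The 25 MAGEA, MAGEB and MAGEC genes together had 35 counts, 22 of them on MAGEA6, a near-identical relative of MAGEA3. Reads that fit both genes of a near-identical pair equally may be counted for neither. A count of 0 for MAGED4 and MAGED4B, MAGEA2 and MAGEA2B, or MAGEA9 and MAGEA9B thus does not show absence. No type I gene reached the count filter, and 15 of the 25 were at 0 in every library.

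The list of ubiquitin ligase partners of MAGE proteins held 9 genes, and all could be tested. Not all of them encode ligases: USP7 is a deubiquitinase and PRKAA1 a kinase subunit. Of these 9 genes, 0 passed the adjusted p in edgeR or DESeq2, 1 had an unadjusted p under 0.05, and the median log2 fold change was -7.4e-06 beside 0.00345 for all tested genes. They ranged from -0.15 for NSMCE1, the RING ligase bound by MAGEF1 and NSMCE3, to 0.23 for LNX1, a ligase bound by MAGEB18. TRIM28, the ligase of several type I MAGE proteins, had a log2 fold change of -0.01 (95% interval -0.14 to 0.13). With the replicate block 1 passed, PRKAA1, a catalytic subunit of AMP-activated kinase, at 0.17 (edgeR, Benjamini-Hochberg adjusted p = 0.326 without the block and 0.0057 with it).

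Of 9 SMC5/6 genes, 0 passed in edgeR or DESeq2 and 2 had an unadjusted p under 0.05. They ran from NSMCE4A, a subunit bound by NSMCE3, at a log2 fold change of -0.24 to SLF2, a factor that brings the complex to chromatin, at 0.21. With the block SLF2 passed (edgeR, Benjamini-Hochberg adjusted p = 0.257 without and 0.0046 with the block). None of the 9 cytosolic iron-sulfur assembly genes passed in edgeR or DESeq2, none had an unadjusted p under 0.05, and the block changed no call. The ends of that list were NUBP1, a scaffold of the pathway, at -0.07 and CIAPIN1, an electron carrier, at 0.12, while MMS19 was at 0.0014 (95% interval -0.19 to 0.19).

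SLC12A1 and SLC12A3, the kidney cotransporters that MAGED2 is known for, had 0 counts in all 6 libraries. The other salt transport and cAMP genes included SLC12A2, the cotransporter of most other epithelia, at 47.9 ± 2.80 CPM with sgRNA control and 51.6 ± 2.86 CPM with sgRNA #2 (SD, n = 3 each), which overlapped. GNAS, the stimulatory G protein subunit to which MAGED2 has been linked, had a log2 fold change of -0.01 (95% interval -0.15 to 0.13). Of the 9 tested genes in this list 0 passed in edgeR or DESeq2 and 0 had an unadjusted p under 0.05, with ADCY3 lowest at -0.15 and ADCY6 highest at 0.14, both adenylate cyclases. With the block 1 passed, the hypoxia factor HIF1A, at 0.13 (edgeR, Benjamini-Hochberg adjusted p = 0.552 without and 0.031 with the block).

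Of 15 genes for other partners of MAGED1, MAGED2, NDN and TRO, 10 could be tested, and those with the smallest p-values were the death receptors for the ligand TRAIL. TNFRSF10A had 185 to 205 counts with sgRNA control and 211 to 303 with sgRNA #2, or 28.6 ± 3.51 and 36.9 ± 5.41 CPM (SD, n = 3 each), a log2 fold change of 0.38 (SE 0.12). TNFRSF10B was at 392 ± 14.7 and 445 ± 9.70 CPM (SD, n = 3 each), a log2 fold change of 0.18 (SE 0.06). Neither receptor overlapped between the groups, and nor did MSX1 and BYSL of the same list, as for 15.6% of all tested genes in either direction. The ligand of the receptors, TNFSF10, had 8 counts in all. The call depended on the fit and on the count filter. Without the block neither receptor passed (edgeR, Benjamini-Hochberg adjusted p = 0.137 and 0.174 in the same order), and with it both did (adjusted p = 0.00081 and 0.00045), in a fit in which 10.0% of all tested genes passed. With no count filter TNFRSF10A passed without the block (edgeR, Benjamini-Hochberg adjusted p = 0.0221). Over this list, with the filter, 0 passed in edgeR without the block and 0 in DESeq2, and 3 had an unadjusted p under 0.05. The transcription factor MSX1 was lowest at -0.18, and NGFR had 10 counts in all. In the retromer and WASH complex, the sorting machinery that the MAGEL2 ligase acts on, 0 of 9 tested genes passed in edgeR or DESeq2 and 0 had an unadjusted p under 0.05, from -0.41 for WASHC3 (edgeR, Benjamini-Hochberg adjusted p = 0.451) to 0.08 for WASHC5.

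**Figure D4:**
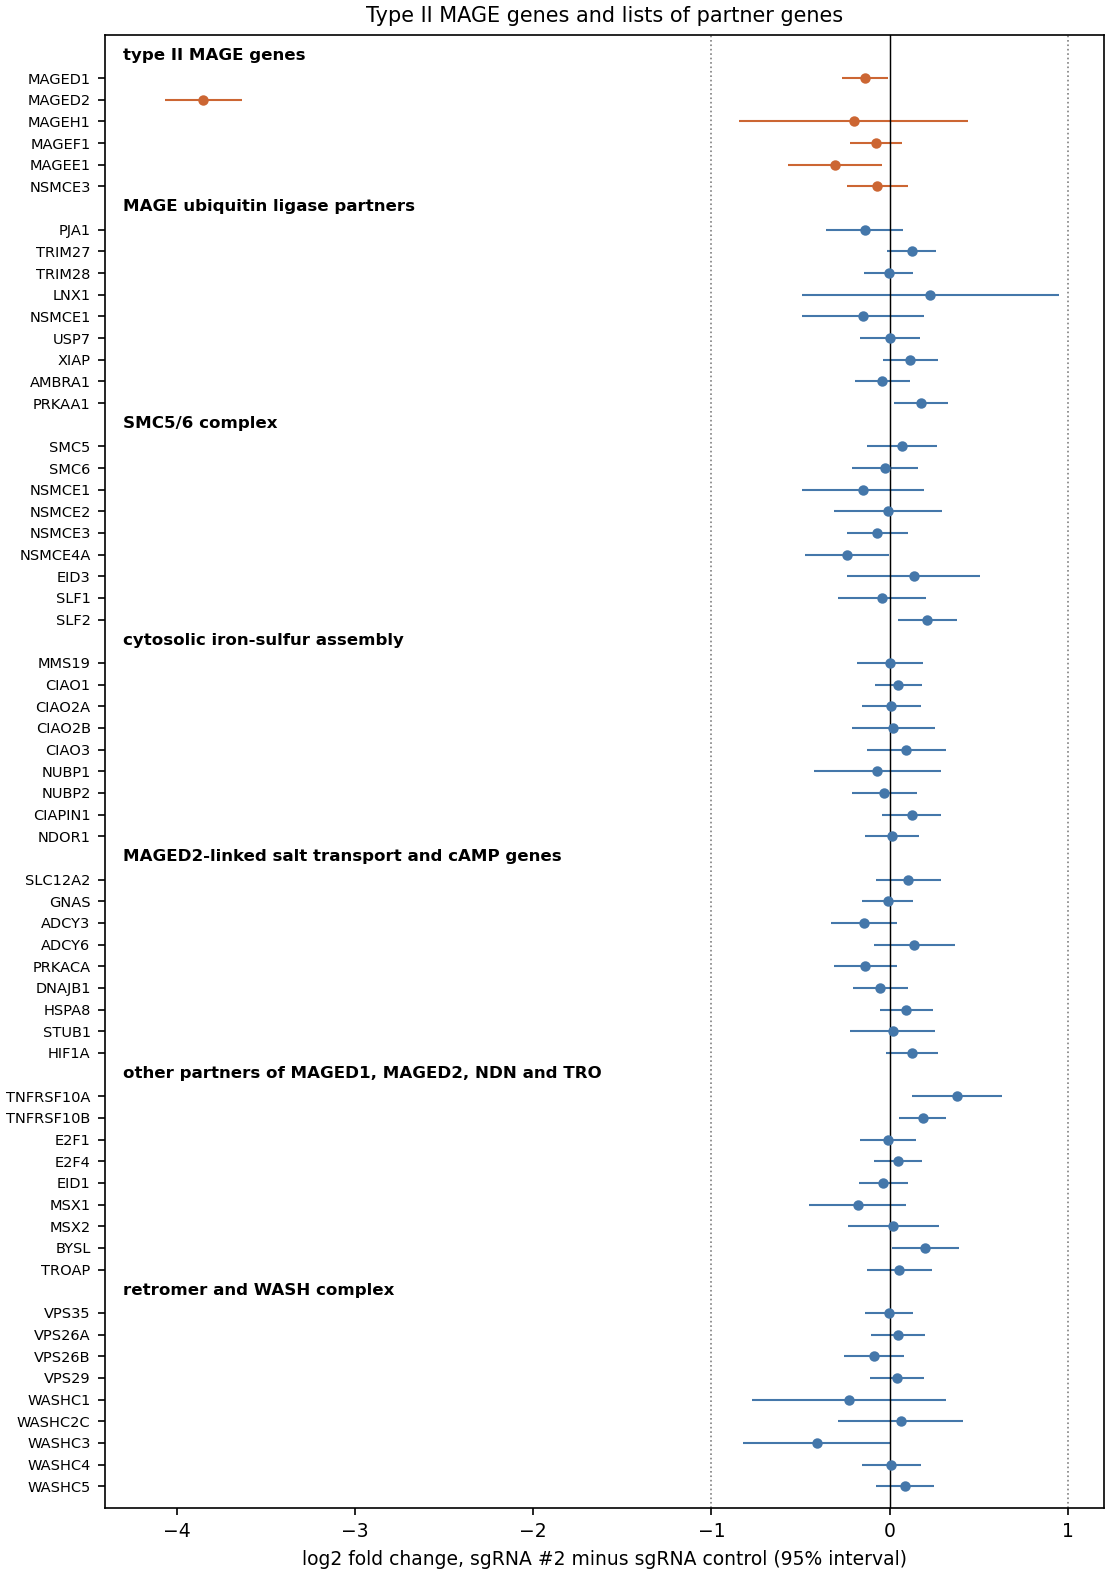
Log2 fold change of sgRNA #2 against sgRNA control with its 95% interval for the tested type II MAGE genes (orange) and the tested genes of the partner lists that are reported here (blue); dotted lines mark the fold change cut-off. MAGED2 stands at -3.85 and every other gene shown lies between -0.41 and 0.38.

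No tested gene around MAGED2 passed the test. Of 23 counted genes that start within 1 Mb of it, 10 could be tested, and 0 passed the adjusted p with or without the block in edgeR, 0 passed in DESeq2 and 0 had an unadjusted p under 0.05. Upstream of MAGED2, the nearest tested genes were GNL3L, a nucleolar GTPase gene 277416 bp away, at a log2 fold change of 0.05 (95% interval -0.09 to 0.19), and FGD1, a guanine nucleotide exchange factor for CDC42, at 0.03. Downstream, they were APEX2, a DNA repair nuclease gene 192764 bp away, at 0.05 (95% interval -0.10 to 0.20), and FAM104B at -0.07. Next to MAGEH1, the deubiquitinase gene USP51 had 14 to 24 counts with sgRNA control and 5 to 18 with sgRNA #2, with overlapping groups and a log2 fold change of -0.80 (95% interval -1.63 to 0.03), and the Rag GTPase gene RRAGB was at -0.15, with 15.5 ± 1.36 and 13.9 ± 0.180 CPM (SD, n = 3 each) and groups that did not overlap. Between MAGED2 and its nearest tested genes the files list genes that could not be tested, among them TRO and, 9344 bp upstream, ITIH6, which had 15 counts in all.

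**Figure D5:**
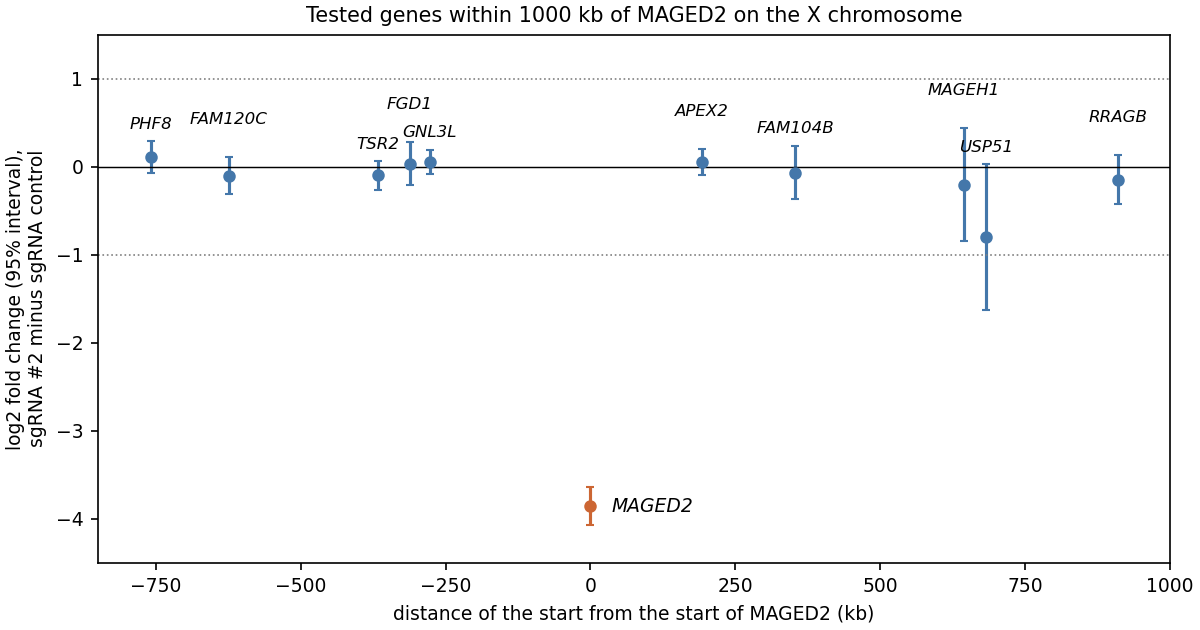
Log2 fold change of sgRNA #2 against sgRNA control with its 95% interval for MAGED2 (orange) and the 10 tested genes within 1000 kb (blue), by the distance of their start from that of MAGED2. MAGED2 is at -3.85 and the neighbours lie between -0.80 (USP51) and 0.11 (PHF8).

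The promoters of 5 of the 6 members were in RefSeq (GRCh38.p14), with 7 promoters in all. MAGED2 and TRO lie in the same stretch of the X chromosome and are shown because one was expressed and the other close to 0. The second promoter of MAGED2 is chrX:54808096-54808395 and that of TRO chrX:54920574-54920873, both on the plus strand. Capitals mark the motif ACTTCCGG.
MAGED2 promoter: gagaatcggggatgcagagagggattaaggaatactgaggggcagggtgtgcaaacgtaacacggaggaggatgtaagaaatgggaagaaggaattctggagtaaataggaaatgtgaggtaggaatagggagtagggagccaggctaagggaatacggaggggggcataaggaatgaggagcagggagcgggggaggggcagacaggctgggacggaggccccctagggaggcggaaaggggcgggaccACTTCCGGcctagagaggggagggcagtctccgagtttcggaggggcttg
TRO promoter: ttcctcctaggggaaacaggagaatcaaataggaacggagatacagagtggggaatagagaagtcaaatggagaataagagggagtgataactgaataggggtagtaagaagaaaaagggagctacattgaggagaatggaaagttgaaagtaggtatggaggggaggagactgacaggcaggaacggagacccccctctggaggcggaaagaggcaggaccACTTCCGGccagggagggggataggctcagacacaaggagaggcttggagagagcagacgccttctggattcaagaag
In a local alignment the pair shared 157 of 228 aligned columns (68.9%), and both held ACTTCCGG, at the start of MAGED2 and 28 bases before that of TRO. The motif was noticed in these sequences and then searched on both strands. It was present in the first promoter of MAGED1 and that of MAGEF1 too, absent from the window of NDN, the second of MAGED1 and the first of MAGED2, and present in 4.14% of 35116 promoters of 300 bases. The NKX2-1 core CAAG, searched on both strands, was in all 7 promoters and in 86.0% of all promoters. MAGED1, MAGED2 and MAGEF1, at the highest levels, and TRO, at most 3 counts in a library, thus all carried ACTTCCGG in a promoter. For MAGED2 this was the second promoter. The first, at chrX:54807495-54807794, lacked the motif and spans the start of the canonical transcript at chrX:54807745. Which promoters these cells used was not tested.

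Across the 6 libraries, the genes most like MAGED2 were sought by the root mean square difference of log2 CPM, each gene centred on its own mean. The median difference over all genes was 1.92. Among the nearest were GALNT6, which had 0 counts in each sgRNA #2 library, at 0.271, the potassium-chloride cotransporter SLC12A4 at 0.297, the BCL2 family gene BOK at 0.387 and RUSC1 at 0.551. Their likeness to MAGED2 comes almost wholly from the contrast that chose it and is given as a description.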

How the data were processed

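For each of the 6 libraries the authors deposited unnormalized counts of reads per gene, made with htseq-count. The submitters' processing notes name Trim Galore, FastQC, Bowtie2 2.3.3.1, SAMtools, Picard, HTSeq and the build hg38. The annotation and strand setting are not given in the sources used here, so how reads of overlapping genes were assigned is not known. Reads left as ambiguous, 2.61 to 2.75% of those in a library, were counted for no gene. Groups and replicate numbers came from the labels, and the study describes the triplicates as biologically independent. Replicates differed by more than counting error (chi-square per degree of freedom 2.72 to 3.61), and the floor of detection was 3 counts.

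Genes were tested where 3 or more libraries held 10 or more counts (13356 genes), with TMM scaling and the quasi-likelihood test of edgeR 4.0.16 in R 4.3.3 and Benjamini-Hochberg adjustment. The SE is the size of the log2 fold change over the square root of F. CPM sets counts against all reads on genes multiplied by the TMM factor of the library. Levels per kb use the union of exons in GENCODE 44, to which 24531 symbols matched. The test was checked on simulated counts. Same-numbered libraries deviated together (correlations 0.269, 0.287 and 0.291 across genes), and the numbers come from the labels, so fits with the replicate number as a block are given where they change a call outside the members. With the block edgeR's prior degrees of freedom were infinite, against 13.0 without it. Alternatives were a Wald test in DESeq2 1.42.0 and its test against 2-fold, RLE size factors, total counts, other filters, other gene lengths, windows and PAMs, and leaving out each library. The guide's sequence was read from the study's supplementary files and matched in Python 3.11.15.

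The genes named are the members, SFTPB, in each list those past the adjusted p or otherwise its extremes, the nearest tested neighbours and the 5 genes most like MAGED2. TRIM28, GNAS, SLC12A2, MMS19, USP7, BYSL, the TRAIL receptors and their ligand, the markers given singly, and the genes that passed only with the block were named after their values were seen. Some genes that meet these criteria are not reported here. The members and lists were chosen with earlier results of these data known.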

Additional observations from a re-analysis of the deposited data

How the results depend on the processing

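Of 215 values recomputed under the alternatives, 199 stayed within 1 SD between replicates or, for counts of genes, within 1.5 times, 16 moved and 0 called values changed sign. Some of the 199 could not have moved. Size factors cancel in the share of MAGED2, and a library left out of either group cannot change the share in the other. The DESeq2 tests also share their log2 fold changes. The uncalled log2 fold change of MAGEH1 went from -0.20 to 0.0015 without sgRNA #2 replicate 3, which is within its SD. That of MAGED2, a description, ran from -3.94 to -3.74 when 1 library was left out. Under the replicate block, the count of called genes went from 0 to 1 for the list of ubiquitin ligase partners, from 0 to 1 for SMC5/6, from 0 to 1 for the salt transport and cAMP genes and from 0 to 2 for the other partners of MAGED1, MAGED2, NDN and TRO. Among the other type II genes, the other partner lists and the genes within 1 Mb of MAGED2, the block changed no other call. Without a count filter 1 of those other partners was called, TNFRSF10A. With the length of the longest transcript the share of MAGED2 was 37.4% with sgRNA control and 4.23% with sgRNA #2, and 4 of 6 members kept their place in the order by level. Leaving out 1 library kept 4 to 6 places, 4 without sgRNA control replicate 2, where TRO and NDN were tied at 0. With a PAM of NAG the longest runs were 6 bases at MAGED1, 5 at MAGED2, 6 at NDN and 6 at TRO. Within 500 bp they were 3 at MAGEH1 and 4 at NDN, and within 2000 bp 7 at MAGEF1. For type I genes only the fit without a count filter could give a value, since none passed the filter. Depth limits MAGEH1, TRO, NDN and USP51, and with 3 libraries per group the spread of each group is itself poorly known. The p-values set the difference between the groups against the spread between these samples, moderated across genes.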

Other observations

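MAGED2 was 1 of 430 tested genes on the X chromosome. In edgeR with Benjamini-Hochberg adjustment 7 X-linked genes were lower and 1 was higher at an adjusted p under 0.05, 1.86% of those tested beside 2.69% of all tested genes. Of these, 2 passed both cut-offs, MAGED2 and RNF128. RNF128, a ubiquitin ligase of T cell anergy, had a log2 fold change of -1.04 (SE 0.22). Among the others, WDR13 was at -0.74, RBBP7, a histone-binding protein of chromatin complexes, at -0.45 and the nuclear receptor gene NR0B1 at 0.30. With the replicate block 24 were lower and 13 higher, 8.60% beside 10.0% of all tested genes. These genes were named after their values were seen.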
